A study of Mus musculus with 6 samples.

Results

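The libraries described here are the 3 control libraries of a study of the DNA methyltransferase Dnmt1 in mouse epidermis, out of 6 libraries in the series. They were chosen by their label, genotype control, and the 3 libraries of the mutant group were not used. The question was what these control cells express. It covers which genes and repeats are abundant, which epidermal layers and minor cell types are visible in the RNA, and how far 3 cultures of one group differ. All values are levels and ranges. There is no second group, so no test was made, and a difference between libraries is given by its size only.

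According to the labels and the methods, epidermis was taken from female pups at postnatal day 3 (P3) and the keratinocytes were grown for 5 days on dishes coated with collagen and fibronectin, in keratinocyte growth medium with 8% chelated serum and 0.05 mM CaCl2. The legend of one figure of the study gives a shorter culture time. In the study, control mice are defined as Dnmt1 f/f or Dnmt1 f/+, on a mixed C57BL/6J and 129SV background, but its survival plot also counts Dnmt1 Δ/+ep mice, which carry K5-Cre, as controls. The labels do not say which genotype each library had, so the absence of Cre is not established for these libraries. A floxed or deleted allele and the mixed background belong to the baseline. Epidermis was lifted from dermis with dispase before culture, and the poly(A) RNA of each of 3 mice gave 1 library, so each library comes from 1 mouse.

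Keratinocytes of the basal layer hold on to the basement membrane by integrins and hemidesmosomes, divide, and make the keratin pair Krt5 and Krt14. On leaving that layer they stop dividing and switch to Krt1 and Krt10 in the spinous layer, then to filaggrin, loricrin and the enzymes of the cornified envelope in the granular layer. Calcium drives this sequence, and a medium low in calcium, as here, is used to hold cultured keratinocytes in the basal state. In wounds and in culture the cells also make the keratins of activated epidermis, Krt6, Krt16 and Krt17.

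Reads on genes numbered 96564377, 96279401 and 53433121 in control replicates 1, 2 and 3. The read counts were turned into CPM, the usual count of a gene scaled to a common library total, with TMM factors between 0.987 and 1.01, and divided by the length of all annotated exons in kilobases (RPKM) wherever 2 genes are compared. A count of 0 was read as up to 3 counts, that is 0.0315, 0.0309 and 0.0560 CPM in the 3 libraries, which covers counting error only. By the table header the 3 control libraries were on different flow-cell lanes, each shared with a library of the mutant group, so mouse, culture and lane cannot be told apart. The label of sex was checked: the X-linked RNA Xist had between 729 and 968 CPM, and none of 4 genes of the Y chromosome had more than 1 count in any library.

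Replicate 1 stood apart from the other 2 libraries, and this touches most of what follows. Replicate 3 was often the opposite end. Of genes with a 2-fold range and a mean of at least 1 CPM, 49.0% were lowest in replicate 1 and highest in replicate 3. The reverse order was found at 18.7% of them. Across the 10931 genes with a mean of at least 1 RPKM, Spearman's rho was 0.989 between replicates 2 and 3, 0.977 between replicates 1 and 2 and 0.964 between replicates 1 and 3. These correlations are across genes, which are not independent replicates. A 2-fold difference was found at 250 of these genes (2.29%) between replicates 2 and 3, at 532 (4.87%) between replicates 1 and 2 and at 812 (7.43%) between replicates 1 and 3. The biological coefficient of variation, the spread between libraries beyond counting error, was 0.247 over all 3 libraries and 0.159 without replicate 1.

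The markers of the label were present at the highest levels in the data. Krt5, the type II keratin of the basal layer (ENSMUSG00000061527, chromosome 15), had 18163, 18842 and 16600 CPM in replicates 1, 2 and 3. Krt14, its type I partner on chromosome 11, had 8545, 10537 and 9223 CPM. Per length Krt5 had the highest level of all genes, 8133 ± 523 RPKM (SD, n = 3), and Krt14 followed with 5367 ± 576 RPKM. Both varied little, with a highest-to-lowest ratio of 1.14 and 1.23.

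**Figure D1:**
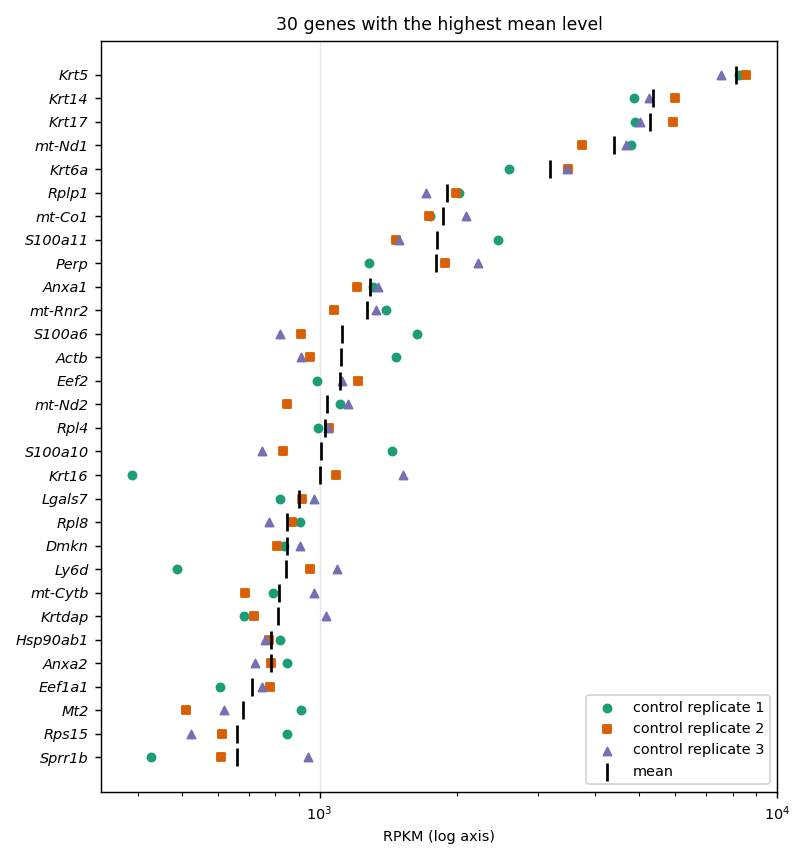
RPKM on a log axis of the 30 genes with the highest mean, one point for each control library and a bar for the mean of 3. Krt5 leads with a mean of 8133 RPKM, and Krt16, with a 3.91-fold range, is the most spread of the 30.

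The next places were shared by activation keratins, mitochondrial transcripts, calcium-binding proteins and the translation machinery. Krt17, a keratin of activated epidermis and hair follicles, reached 5279 ± 565 RPKM and Krt6a, of wound-edge keratinocytes, 3189 ± 515 RPKM. The mitochondrially encoded mt-Nd1, a subunit of respiratory complex I, had 4410 ± 571 RPKM and mt-Co1, of complex IV, 1857 ± 202 RPKM. Perp, a desmosomal protein and p63 target, had 1794 ± 477 RPKM. The S100 proteins S100a11 (1806 ± 562 RPKM), S100a6 (1122 ± 447 RPKM) and S100a10 (1007 ± 377 RPKM) were all highest in replicate 1. The cytoskeletal gene Actb (1112 ± 309 RPKM) was also highest in replicate 1. The annexin Anxa1 (1287 ± 69.4 RPKM), elongation factor Eef2 (1107 ± 115 RPKM) and ribosomal Rpl4 (1029 ± 33.1 RPKM) were close to even across the 3 libraries.

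Krt5, Krt14, Krt17 and Krt6a alone took 4.32% ± 0.386 of gene reads (SD, n = 3). All 53 annotated keratin genes together took 4.59% ± 0.459 (SD, n = 3). Of the 53, 21 were at 1 RPKM or more (25.7% of all genes with an exon length and 47.8% of protein-coding genes were). The 50 most abundant genes held 13.5% ± 0.339 of the reads, 1050 genes made up 50% of them and 5529 genes made up 90%. The mitochondrial genome gave 1.30% ± 0.150 and cytosolic ribosomal protein genes 1.73% ± 0.232. Counts of Krt6a, Krt6b, Krt14, Krt16 and Krt17 rest on uniquely mapped reads, and these genes have close copies; how many of their reads mapped to several places was not measured. Exons of another gene overlap 24.8% of the exon length of Krt6a.

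Detection covered less than the whole annotation. Of 43629 genes listed, 24625 had a count in any control library, 19176 in each of the 3, and 19004 in none. A mean of at least 1 RPKM was reached by 10931 genes, of which 10302 code for protein (47.8% of 21551 protein-coding genes). Of 5694 long noncoding genes, 227 were at that level. Of all genes, 373 reached 100 RPKM and 17 reached 1000 RPKM. Replicate 3 was the shallowest but not the poorest in genes: drawn down to its depth, replicates 1 and 2 would be expected to show 20342 and 21105 genes with a count, against 21805 in replicate 3.

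Levels were summed over the lists of epidermal layers, and a few genes carried most of the basal, activated and spinous sums. Krt5 (8133 RPKM) and Krt14 (5367 RPKM) made up nearly all of the basal mean of 13620 RPKM. Krt17 (5279 RPKM) and Krt6a (3189 RPKM) made up most of the activated mean of 10978 RPKM. Krtdap (812 RPKM) made up most of the spinous mean of 1303 RPKM. The sums and shares are of RNA, not of cells in a layer. The 6 genes of the basal list summed to 13265, 14680 and 12914 RPKM, and 6 of 6 were at 1 RPKM or more. The 14 genes of the activated list summed to 8821, 11867 and 12246 RPKM. The 11 spinous genes summed to 983, 1170 and 1757 RPKM, and the 23 granular and cornified genes to 271, 526 and 773 RPKM. As shares of these 4 lists per length, basal genes made up 51.8%, activated genes 41.3%, spinous genes 4.90% and granular genes 1.94%. The basal and activated sums exceeded the others in each library, by more than the range between libraries. For the basal list this rests on Krt5 and Krt14. Its other genes had between 4.14 RPKM (Krt15) and 60.7 RPKM (Cdh3), and together they lie below the spinous and granular sums.

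Basal identity was uneven below the leading pair. Trp63, the transcription factor p63 that maintains stratified epithelium, had 277, 290 and 377 CPM, highest in replicate 3. Krt15, a keratin of quiescent basal and bulge cells, was low and varied most, with 1.53, 8.76 and 11.7 CPM, so replicate 1 was far below the others. The basal cadherin Cdh3 (328, 253 and 217 CPM) and Sox15 (24.7, 11.4 and 9.69 CPM) were highest in replicate 1.

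Genes that anchor basal cells were highest in replicate 1 with 1 exception. The lists here and below were chosen with earlier results of these data known. Their counts beside the share of all genes therefore describe the lists and are not independent evidence. Of the 13 genes for hemidesmosomes, integrins, laminin chains and the anchoring fibril, 12 were highest in replicate 1 (40.7% of all genes with a mean of at least 1 CPM were), and 12 were lowest in replicate 3 (34.2% of all). The exception in both counts is not the same gene: Col7a1, the anchoring fibril collagen, was highest in replicate 2 (113 CPM) and Dst, a plakin of the hemidesmosome, lowest there (151 CPM). Itga6, a subunit of the hemidesmosome's integrin, had 833, 412 and 364 CPM, and its partner Itgb4 had 1099, 922 and 728 CPM. Itga3, of the laminin receptor of focal contacts, had 815, 470 and 317 CPM. Col17a1, a collagen that spans the membrane at the hemidesmosome, was high and steadier, with 1884, 1769 and 1609 CPM. A range of at least 2-fold was found at 3 of 13 members over the 3 libraries (10.3% of all genes) and at 0 of 13 between replicates 2 and 3, where the share of all genes was 2.57%.

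Spinous genes went the other way. Of the 10 with a mean of at least 1 CPM, 9 were lowest in replicate 1 (41.9% of all genes were) and 8 were highest in replicate 3 (32.4% of all). Krt1, the type II keratin that opens the spinous programme, had 52.8, 357 and 532 CPM, a 10.1-fold range. Krt10, its type I partner, was far lower, with 9.57, 32.1 and 29.8 CPM. Per length the pair was uneven too, at 71.1 ± 54.9 RPKM for Krt1 and 11.3 RPKM for Krt10. The desmosomal cadherins of suprabasal cells were lowest in replicate 1 as well, with 22.4, 70.5 and 137 CPM for Dsg1a and 16.8, 58.6 and 148 CPM for Dsc1. The calmodulin-like Calm4 had 58.1, 114 and 275 CPM. The secreted proteins of differentiating keratinocytes, Krtdap (463, 488 and 703 CPM) and Sbsn (616, 560 and 640 CPM), were abundant in each library and had ranges of 1.52-fold and 1.14-fold. The Notch target Hes1 (73.4, 82.1 and 89.5 CPM) was near even. A 2-fold range was met by 6 of 10 spinous genes (10.3% of all genes), and by 3 of 10 between replicates 2 and 3 alone (2.57% of all).

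**Figure D2:**
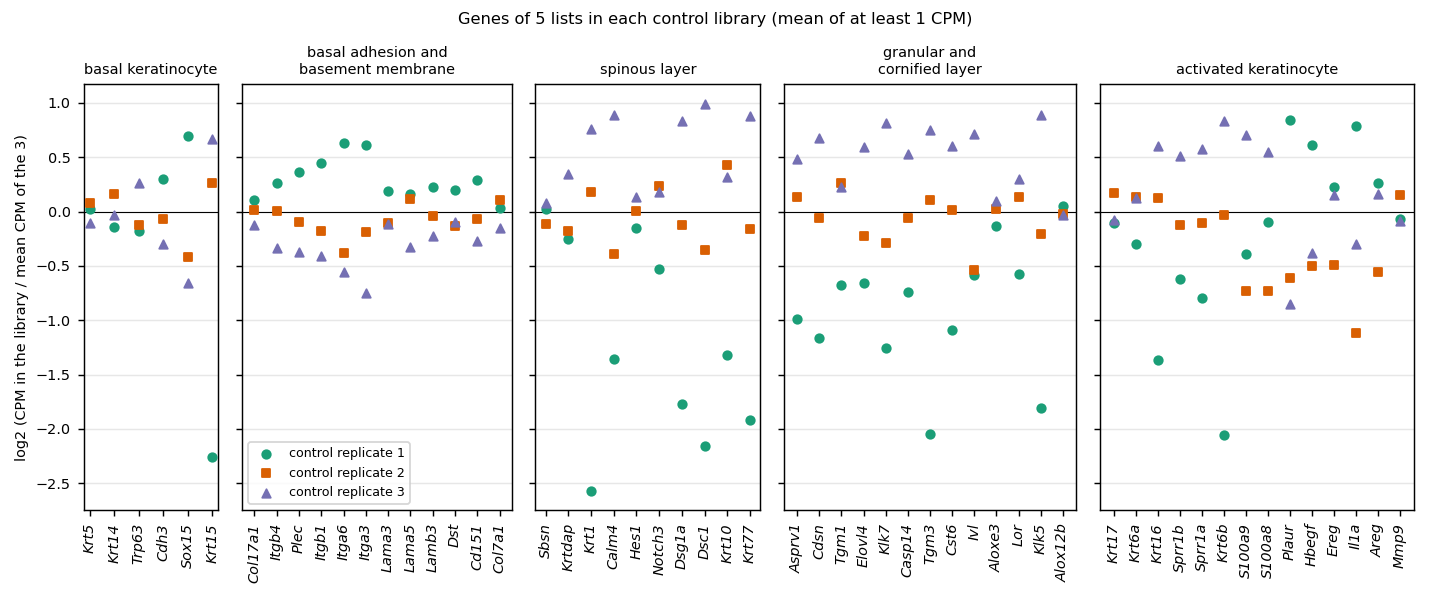
Genes of 5 lists with a mean of at least 1 CPM, all but 1 adhesion gene, as log2 of its CPM in a library over its mean of the 3 libraries, ordered by mean within a list. Replicate 1 (circles) lies below the line for most spinous and granular genes and above it for the 12 adhesion genes drawn. Replicate 3 (triangles) is the highest library at 8 of 10 spinous and 11 of 13 granular genes.

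Levels in the granular and cornified list were uneven, with filaggrin and Krt2 near 0 and corneodesmosin high. Filaggrin (Flg), the main granule protein, had 0, 1 and 1 counts, and Krt2, the keratin of the upper spinous and granular layers, had 1, 3 and 2 counts, so both were at or below the floor of 3 counts in each library. Loricrin (Lor) had 6.96, 11.4 and 12.8 CPM and involucrin (Ivl) 10.5, 10.8 and 25.8 CPM. None of the 6 late cornified envelope genes listed reached a mean of 1 CPM. Per length, the short Lce1a1 (1.07 RPKM) and Lce3a (1.04 RPKM) were just above 1 RPKM. Corneodesmosin (Cdsn), which joins cornified cells, had 120, 257 and 428 CPM. The aspartic protease Asprv1, which processes filaggrin, had 143, 312 and 396 CPM, and the kallikrein Klk7 had 55.9, 109 and 235 CPM. The transglutaminases that cross-link the envelope were present, with 123, 236 and 230 CPM for Tgm1 and 6.84, 30.4 and 47.4 CPM for Tgm3. Of 13 members with a mean of at least 1 CPM, 12 were lowest in replicate 1 (41.9% of all genes), 11 were highest in replicate 3 (32.4%) and 9 had a 2-fold range (10.3%). Between replicates 2 and 3 alone, 3 of 13 had one (2.57%).

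The lipoxygenases had narrow ranges, and Alox12b was the 1 member of the 13 that was highest in replicate 1. Alox12b, which makes the lipid envelope, had 9.31, 8.85 and 8.77 CPM, and Aloxe3, the next enzyme, 12.7, 14.1 and 14.9 CPM. Neither range exceeded 1.18-fold.

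The activated list did not move as a unit. Krt16 had 609, 1704 and 2382 CPM and Krt6b 63.2, 257 and 468 CPM, both lowest in replicate 1. The cornified envelope precursors Sprr1a (266, 429 and 689 CPM) and Sprr1b (356, 504 and 783 CPM) had the same order. The neutrophil-attracting S100a8 (36.9, 23.9 and 57.7 CPM) and S100a9 (32.4, 25.6 and 69.0 CPM) were lowest in replicate 2. The protease receptor Plaur (41.4, 15.1 and 12.8 CPM), the cytokine Il1a (9.50, 2.54 and 4.46 CPM) and the growth factor Hbegf (28.3, 13.1 and 14.2 CPM) were highest in replicate 1. A 2-fold range was met by 9 of 14 (10.3% of all genes), and by 2 of 14 without replicate 1 (2.57% of all).

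The promoters of a few genes of the layer and melanocyte lists are shown to give the letters near their starts. They are the 160 bases before the RefSeq start on GRCm38.p6, 5′ to 3′ on the gene's strand, and capitals mark the letters TATAAA (the TATA box), TGANTCA (the site of AP-1, the Fos and Jun dimer) and CATGTG (the core of the M-box bound by Mitf) on either strand, where no match overlapped another. The windows lie at chr15:101712906-101713065 (Krt5, minus strand), chr11:99389365-99389524 (Krt10, minus), chr7:30787745-30787904 (Krtdap, plus), chr3:92573736-92573895 (Ivl, minus), chr3:92438780-92438939 (Sprr1b, minus), chr7:87493513-87493672 (Tyr, minus), chr4:80834053-80834212 (Tyrp1, plus) and chr14:118052247-118052406 (Dct, minus).
Krt5: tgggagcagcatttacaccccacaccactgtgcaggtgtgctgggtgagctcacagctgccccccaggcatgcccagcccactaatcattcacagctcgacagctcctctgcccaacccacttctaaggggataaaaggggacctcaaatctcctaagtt
Krt10: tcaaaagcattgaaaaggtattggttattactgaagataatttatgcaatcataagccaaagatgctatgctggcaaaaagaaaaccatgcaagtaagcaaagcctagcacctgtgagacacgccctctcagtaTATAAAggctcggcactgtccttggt
Krtdap: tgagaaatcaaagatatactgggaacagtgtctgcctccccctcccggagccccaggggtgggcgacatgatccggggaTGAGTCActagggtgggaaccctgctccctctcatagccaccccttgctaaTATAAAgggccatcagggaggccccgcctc
Ivl: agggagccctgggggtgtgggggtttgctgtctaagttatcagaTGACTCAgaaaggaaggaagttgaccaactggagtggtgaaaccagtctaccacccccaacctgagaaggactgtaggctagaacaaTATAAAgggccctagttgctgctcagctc
Sprr1b: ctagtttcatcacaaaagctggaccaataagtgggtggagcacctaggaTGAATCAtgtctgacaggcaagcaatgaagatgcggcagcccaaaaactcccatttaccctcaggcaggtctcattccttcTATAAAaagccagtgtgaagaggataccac
Tyr: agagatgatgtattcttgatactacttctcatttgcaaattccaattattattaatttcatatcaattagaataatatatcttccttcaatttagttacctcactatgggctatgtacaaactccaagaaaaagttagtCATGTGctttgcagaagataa
Tyrp1: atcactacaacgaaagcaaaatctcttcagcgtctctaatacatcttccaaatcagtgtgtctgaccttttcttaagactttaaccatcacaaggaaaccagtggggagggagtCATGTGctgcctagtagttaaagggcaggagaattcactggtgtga
Dct: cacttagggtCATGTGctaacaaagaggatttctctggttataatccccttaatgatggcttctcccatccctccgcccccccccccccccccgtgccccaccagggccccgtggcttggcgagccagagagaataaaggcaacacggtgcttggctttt

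Within the 250 bases before the start, TATAAA was found at 14.3% of the 27025 genes with a promoter in the table, TGANTCA at 7.82% and CATGTG at 13.8%. Of the activated list, 7 of 14 genes had a promoter there, and 5 of the 7 held TATAAA and 4 of 7 held TGANTCA. Of the spinous list, 3 of 7 held TATAAA and 2 of 7 TGANTCA. Of 21 granular genes, 7 held TATAAA and 4 TGANTCA. Of 3 basal genes with a promoter there, 0 held any of the 3 motifs. The letters CATGTG were found at 3 of 7 activated, 1 of 7 spinous and 6 of 21 granular genes. The Krt5 window held none of the 3 motifs, which says only that these letters are not in it. In Ivl the AP-1 letters began 116 bases before the start and in Krtdap 81 bases before it. Jun itself, a partner in AP-1, had 210, 218 and 226 CPM, Junb 146, 221 and 230 CPM and Fos 17.1, 16.1 and 18.7 CPM.

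The transcription factors of keratinocytes were at 1 RPKM or more in 17 of 17 cases (47.8% of protein-coding genes were). Klf4, a factor of barrier formation, had 194, 228 and 220 CPM and Grhl2, of epithelial junction genes, 117, 108 and 110 CPM. Of the 17, 14 were lowest in replicate 1 (41.9% of all genes were). A 2-fold range was found at 3 of the 17 (10.3% of all genes), among them the differentiation factors Grhl1 (91.6, 190 and 230 CPM) and Cebpa (70.9, 171 and 165 CPM), and 0 of the 17 had one between replicates 2 and 3 (2.57% of all).

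None of the 15 junction genes had a 2-fold range, but their median range of 1.42-fold was above the 1.28-fold over all genes. The desmoplakin gene Dsp, which ties keratin filaments to desmosomes, had 4207, 5069 and 5977 CPM. E-cadherin (Cdh1) had 1365, 1503 and 1368 CPM, and desmoglein Dsg3, the basal form, 977, 987 and 950 CPM. Plakoglobin (Jup) had 1349, 2213 and 2059 CPM and Pkp1 1501, 2512 and 2466 CPM, both lowest in replicate 1.

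All 20 proliferation genes had a mean above 10 RPKM, as did 5022 of 42548 genes in all, and their sum was 1268, 1080 and 999 RPKM. Top2a, the topoisomerase of dividing cells, had 764, 779 and 818 CPM and the replication helicase subunit Mcm6 289, 305 and 280 CPM. Ccnd1, the cyclin of entry into the cycle, had 825, 418 and 301 CPM, highest in replicate 1. Mki67, the Ki67 antigen, had 376, 442 and 924 CPM, highest in replicate 3, and was the only member with a 2-fold range between replicates 2 and 3. Of the 20, 17 were lowest in replicate 3 (34.2% of all genes) and 13 highest in replicate 1 (40.7% of all), whereas Mki67 and Top2a were lowest in replicate 1 and highest in replicate 3.

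Long transcripts were somewhat higher in replicate 3 and lower in replicate 1, and GC-rich ones were higher in replicate 2. In the longest 20% of 9083 protein-coding genes with at least 10 CPM (median exon length 10415 bases), the median log2 level of replicate 3 over the mean of the others was 0.08, against -0.11 in the shortest 20% (median 1975 bases). For replicate 1 the same medians were -0.10 and 0.11. In replicate 2 the median was 0.17 in the 20% richest in GC (57.6%) and -0.17 in the poorest (41.4%), and its deviations had a Spearman rho of 0.611 with GC across genes. Their part in the values above was not tested.

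Of 5 keratins of simple epithelia, 2 were at 1 RPKM or more, and of 10 mesenchymal and migration genes 5 were (47.8% of protein-coding genes were). Krt7 had 177, 138 and 116 CPM, while Krt18 (27.4, 8.18 and 6.83 CPM), Krt8 (1.80, 1.05 and 1.06 CPM) and Krt19 (2.06, 0.710 and 0.467 CPM) were low and highest in replicate 1. Among migration genes the matrix protein Tnc had 289, 180 and 127 CPM and the basal repressor Snai2 111, 104 and 118 CPM. Vimentin (Vim) had 63.8, 88.1 and 51.8 CPM and fibronectin (Fn1) 65.8, 53.0 and 38.6 CPM. Zeb1, Snai1 and Twist1 were each below 1 CPM on average.

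Hair follicle and sebaceous genes were present in part. Plet1, of the junctional zone, had 525, 461 and 491 CPM and Sox9, of the outer root sheath, 365, 349 and 337 CPM, with ranges of 1.14-fold and 1.08-fold. Lrig1 (76.3, 105 and 108 CPM), Nfatc1 (23.1, 42.4 and 44.2 CPM), Krt79 (14.4, 39.4 and 37.8 CPM) and Foxn1 (31.7, 67.3 and 58.0 CPM) were lowest in replicate 1. The keratins of the inner root sheath (Krt25, Krt27, Krt28, Krt71, Krt72 and Krt73) did not exceed 0.347 CPM in any library, and Lgr5 and Cd34, of the bulge, did not exceed 1.13 CPM. Among 5 sebocyte genes only Soat1, which is used by many cell types, passed 1 RPKM, and Mc5r had no count.

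Genes of growth factor signalling included receptors and ligands of the EGF family. The EGF receptor Egfr had 211, 238 and 265 CPM, and its relatives Erbb2 (74.6, 125 and 113 CPM) and Erbb3 (88.1, 139 and 152 CPM) were lowest in replicate 1. Of its ligands, Tgfa had 55.5, 54.6 and 50.4 CPM and Areg 4.69, 2.66 and 4.37 CPM. The TGF-beta receptor Tgfbr2 had 346, 342 and 310 CPM. Fgf7, which comes from dermal fibroblasts, had 20, 8 and 4 counts, while its receptor gene Fgfr2 had 195, 238 and 202 CPM. Kitl, the ligand of Kit on melanocytes, had 41.5, 32.6 and 64.6 CPM.

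Of 20 interferon-stimulated genes, 6 reached 1 RPKM (25.7% of all genes and 47.8% of protein-coding genes did), and the list summed to 28.5, 27.5 and 30.8 RPKM. The RNA sensor Ddx58 led in CPM (76.9, 66.0 and 55.0), and Stat2 had 15.8, 18.6 and 24.1 CPM. Ifit1 had 2, 14 and 16 counts, Mx2 4, 1 and 12, Oasl2 1, 5 and 13, and Ifi44 at most 2 counts. Isg15 had 0.368, 0.483 and 1.05 CPM and the sensor Ifih1 3.71, 6.26 and 11.3 CPM, both lowest in replicate 1.

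The DNA methylation machinery gives the control level of the gene the study deletes. Dnmt1, the maintenance methyltransferase, had 392, 380 and 324 CPM (49.5 RPKM), and its partner Uhrf1, which brings it to replicated DNA, 170, 147 and 120 CPM. The de novo enzymes were lower per length, with 5.96 RPKM for Dnmt3a (83.8, 111 and 103 CPM) and 2.96 RPKM for Dnmt3b (16.6, 15.5 and 13.2 CPM). Of the Tet enzymes, which oxidise methylcytosine, Tet3 had 194, 223 and 208 CPM, Tet2 28.1, 31.2 and 36.7 CPM and Tet1 0.819, 1.07 and 1.51 CPM. None of the 7 had a 2-fold range.

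**Figure D3:**
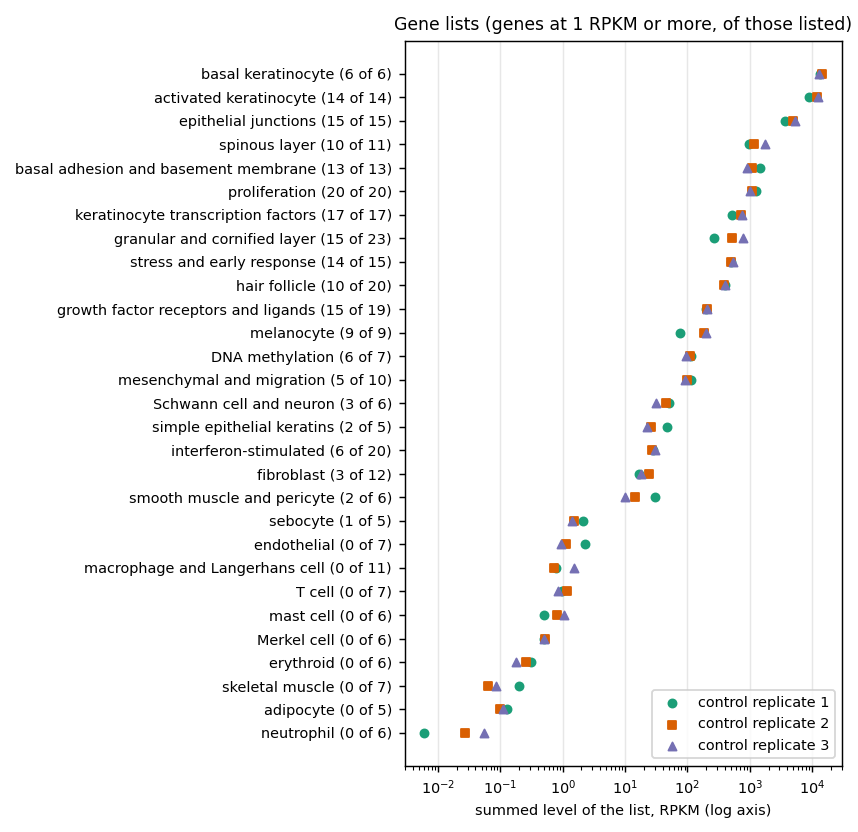
Summed RPKM of 29 gene lists on a log axis, one point for each control library, with the number of genes at 1 RPKM or more out of those listed in brackets. Keratinocyte lists lie between 271 and 14680 RPKM, melanocyte genes between 74.9 and 197 RPKM, and lists of leukocytes, erythroid cells, skeletal muscle and fat cells at or below 1.53 RPKM.

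Melanocyte genes were present in each library. All 9 melanocyte genes were at 1 RPKM or more, and their sum was 74.9, 183 and 197 RPKM. Pmel, of the melanosome fibrils, had 60.7, 180 and 184 CPM and Tyrp1, an enzyme of melanin synthesis, 58.9, 140 and 161 CPM. Dct, another enzyme of that pathway, had 61.4, 117 and 137 CPM, and tyrosinase (Tyr), the first, 10.8, 27.4 and 34.5 CPM. The regulators had 16.8, 22.4 and 27.6 CPM for Mitf and 3.16, 9.39 and 9.58 CPM for Sox10. All 9 were lowest in replicate 1 and highest in replicate 3, an order found at 23.6% of all genes. A 2-fold range was met by 8 of 9 (10.3% of all genes), and by 0 of 9 between replicates 2 and 3 (2.57% of all). Of the 5 melanocyte genes with a promoter in the RefSeq table, 4 held CATGTG (13.8% of all genes with a promoter did), among them Tyr 21 bases, Tyrp1 46 bases and Dct 150 bases before the start. In bulk RNA, fewer cells of a type and less RNA per cell cannot be told apart.

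Of 12 fibroblast genes, 3 reached 1 RPKM (25.7% of all genes and 47.8% of protein-coding genes did), namely Fbln1 (56.3 ± 6.17 CPM, SD, n = 3), Col6a1 (5.86, 14.3 and 6.18 CPM) and Col5a1 (7.02, 13.3 and 8.27 CPM). The main dermal collagens Col1a1 (4.56, 6.99 and 3.38 CPM) and Col3a1 (4.29, 8.62 and 3.21 CPM), which dominate dermis, did not reach 1 RPKM on average. Replicate 2 was highest at 10 of the 11 members with at least 1 CPM, against 26.8% of all genes, and 6 of 11 had a 2-fold range with and without replicate 1 (10.3% and 2.57% of all genes).

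Leukocyte genes were close to 0. Ptprc, which encodes CD45 of all leukocytes, had 0, 0 and 2 counts, and Cd207, of Langerhans cells, and Adgre1, of macrophages, had 0 in every library. Cd3d and Cd3g of T cells, Cpa3, Mcpt4 and Fcer1a of mast cells, and Ly6g, Mpo and Retnlg of neutrophils also had no count. H2-Ab1, an MHC class II gene, had 157, 130 and 172 counts, although H2-Aa had at most 1. The summed macrophage and Langerhans list lay between 0.719 and 1.53 RPKM, the T cell list between 0.851 and 1.16 RPKM and the mast cell list between 0.494 and 1.03 RPKM. The T cell and mast cell sums rest mainly on Thy1 (0.617 RPKM) and Kit (0.680 RPKM), which other skin cells share. Both erythroid alpha globins and both beta globins had 0 counts.

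Endothelial genes lay under 1 RPKM each, and Kdr, a VEGF receptor, led them with 13.2, 4.38 and 2.76 CPM, highest in replicate 1, where Cdh5 had 53, 11 and 5 counts. Merkel cell genes left a trace: Krt20 had 51, 38 and 17 counts, Atoh1 8, 14 and 8, and Sox2 24, 32 and 14. In the neural list Mbp (145, 111 and 104 CPM) and Tubb3 (60.2, 53.2 and 28.2 CPM) were high while S100b, of Schwann cells, did not exceed 0.448 CPM. Mbp and Tubb3 are not specific to nerve. Muscle genes were at or near 0, with no count of Myod1 or Myh8. The contractile genes Acta2 (30.6, 17.7 and 13.6 CPM) and Tagln (31.8, 10.9 and 7.02 CPM) were highest in replicate 1, whereas the smooth muscle genes Myh11 and Des had at most 13 counts.

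Spread between the libraries was then taken over all genes. Of 12155 genes with a mean of at least 1 CPM, 1254 had a range of at least 2-fold (10.3%), and the median range was 1.28-fold. Replicate 1 was the lowest library in 762 of the 1254 (60.8%) and the highest in 339. Without replicate 1 the count was 313 of 12171 (2.57%), and without replicate 3 it was 636. The share was 31.2% of genes between 1 and 3 CPM and 3.75% between 100 and 300 CPM. Beside the 10.3% of all genes stand 6 of 10 spinous, 9 of 13 granular, 9 of 14 activated, 3 of 13 adhesion, 8 of 9 melanocyte, 6 of 11 fibroblast and 0 of 15 junction genes. These lists were chosen with earlier results of these data known. Junction genes lay mostly above 100 CPM, where the share of all genes is 3.75% up to 300 CPM and 4.46% above it. The median range was 4.05-fold for spinous, 2.45-fold for granular, 2.31-fold for activated and 2.52-fold for melanocyte genes.

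**Figure D4:**
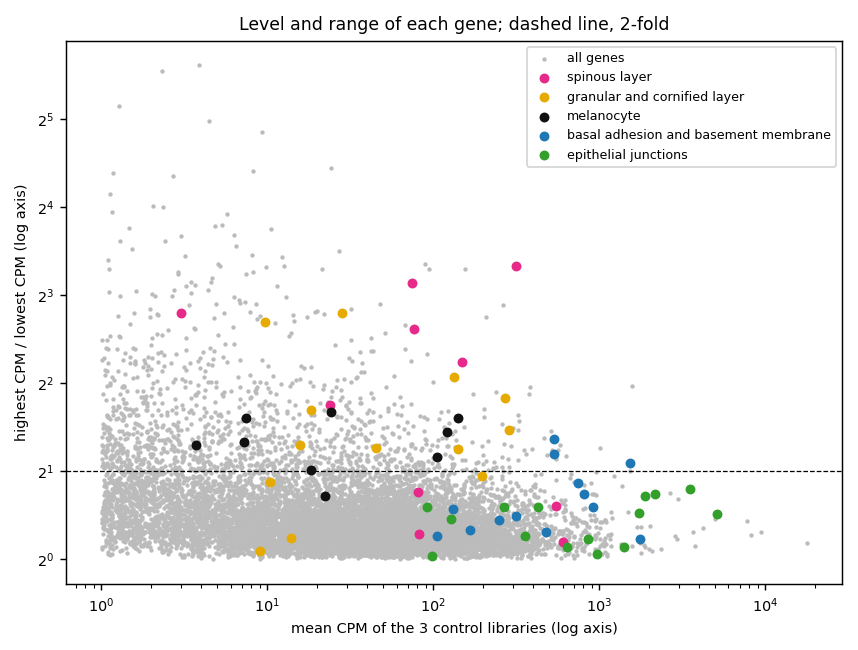
Mean CPM against the ratio of the highest to the lowest library, both on log axes, for every gene with at least 1 CPM and a count in each library, with 5 lists in colour and the 2-fold line dashed. Spinous and melanocyte genes lie mostly above the line and the 15 junction genes below it.

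The widest ranges among genes with at least 10 CPM mixed skin genes with copies of other genes. Vcp-rs, a processed copy of Vcp on the X chromosome, had 2.95, 64.6 and 4.46 CPM, highest in replicate 2. The microRNA gene Mir7688 had 27.6, 2.04 and 2.11 CPM and the ribosomal pseudogene Rpl31-ps8 30.5, 3.01 and 4.41 CPM, both highest in replicate 1. Reads of Vcp-rs and Rpl31-ps8 can come from the parent gene, so their values are uncertain. The Mir7688 entry spans 56 bases, and whether its reads in this poly(A) RNA come from the microRNA was not tested. The others were lowest in replicate 1 and highest in replicate 3. Tslp, a cytokine that keratinocytes release in barrier defects and eczema, had 19.3, 49.9 and 198 CPM. The stefins Stfa3 (20.2, 64.4 and 199 CPM) and BC100530 (32.0, 115 and 316 CPM), inhibitors of cysteine proteases, had close to 10-fold ranges, as did the metalloreductase Steap4 (from 5.12 to 58.1 CPM) and the gasdermin Gsdmc (2.17, 11.3 and 23.5 CPM).

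For each library the 5 genes farthest above and the 5 farthest below both others are named, a rule that returns genes for any library. In replicate 2 those above, except Vcp-rs, lay at most 1.08 log2 units above the next library. Replicate 1 was farthest above both others at Mir7688, Rpl31-ps8, the pseudogene Gm10275, the keratin Krt90 (36.5, 9.75 and 5.41 CPM) and the troponin Tnnt2 (54.5, 15.2 and 15.1 CPM). It was farthest below them at Krt1, the epidermal octamer factor Pou2f3 (from 4.36 to 30.7 CPM), Gsdmc, the Myc antagonist Mxd4 (6.97, 32.4 and 37.6 CPM) and Tgm3. Replicate 2 stood above at Vcp-rs, the ribosomal gene Rps18 (23.9, 50.5 and 12.3 CPM), Col6a3, the pseudogene Gm6472 and Foxo6, and below at Acp1, Srp9, the chemokine Cxcl1 (22.9, 6.77 and 14.3 CPM), Fam167a and Gm10260. Gm10260 overlaps other genes over 96.4% of its exons. Reads of the pseudogenes Gm10275 and Gm6472 can come from a parent gene, so their values are uncertain too. Replicate 3 stood above at Tslp, the tight-junction-associated Pof1b (66.0, 114 and 447 CPM), Nbeal1, repetin (Rptn) and Steap4. It stood below at Mal (95.8, 34.5 and 12.8 CPM), the glucose transporter Slc2a3 (60.9, 23.9 and 10.9 CPM), Mmp3, Rps18 and Pthlh.

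Repeats were counted in a table of their own, in which 1 name stands for all copies of an element. Most LINE, SINE and LTR copies are remnants, and reads from copies inside introns or 3′ ends of genes are counted with them. Repeat reads came to 12.2, 8.87 and 9.25 per 100 gene reads in replicates 1, 2 and 3. Reads outside annotated genes made up 8.98%, 7.70% and 8.42% of all reads in the gene table, also highest in replicate 1, and the part of either in the other was not tested. Of 1067 repeat names, 985 had a count in each library and 34 in none.

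LTR elements held 29.9% ± 1.23 of repeat reads (SD, n = 3), SINEs 27.9% ± 0.935 and LINEs 24.8% ± 0.153. Ribosomal RNA held 12.4% ± 2.35 and DNA transposons 2.45% ± 0.244. The ribosomal share was 14.1%, 13.2% and 9.69% in replicates 1, 2 and 3, and its change enters the shares of all other classes. The libraries are of poly(A) RNA, so the ribosomal share need not be a level in the cells. The order of LTR, SINE and LINE was the same in each library, although LTR and SINE differed by less than 3 percentage points. Without the most abundant name of each class, SINEs (32.0%) exceeded LTR elements (30.1%). Satellites took 0.776%, 0.976% and 1.47% of repeat reads, highest in replicate 3, and other small RNAs 1.17%, 0.499% and 0.505%, highest in replicate 1.

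**Figure D5:**
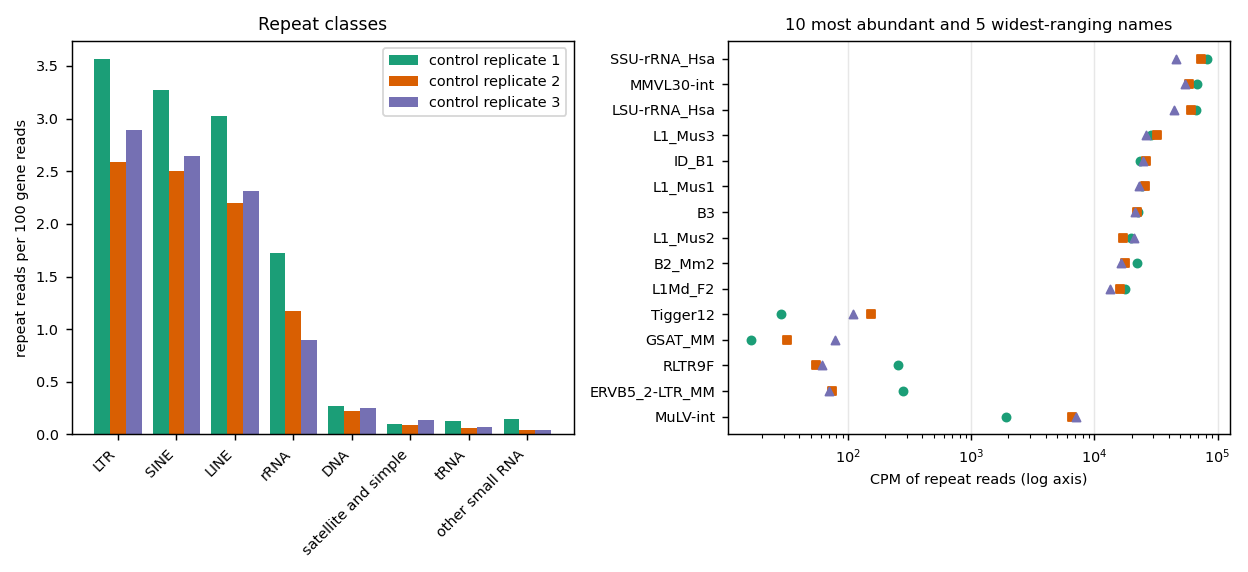
Left, repeat reads of 8 classes per 100 gene reads, one bar for each control library. Right, CPM of repeat reads on a log axis for the 10 most abundant names and the 5 widest-ranging names whose mean count reached 100: the abundant names lie within 1.79-fold, while MuLV-int is 3.71-fold lower in replicate 1 than in replicate 3.

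The most abundant names were ribosomal RNA and a retrovirus-like element. SSU-rRNA_Hsa, the small ribosomal RNA, had 82650, 72837 and 46240 CPM of repeat reads and LSU-rRNA_Hsa, the large one, 67354, 60968 and 43923 CPM, both lowest in replicate 3. MMVL30-int, the internal part of the VL30 retrotransposon, had 67616, 58464 and 54682 CPM. L1_Mus3, L1_Mus1, L1_Mus2 and L1Md_F2 among LINEs and ID_B1, B3 and B2_Mm2 among SINEs completed the 10 most abundant names, which held 33.7% ± 2.23 of repeat reads.

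A 2-fold range was met by 53 of 737 repeat names with a mean of at least 100 counts (7.19%), in each of which replicate 1 was the highest (36) or the lowest (17). The biological coefficient of variation of repeat names, scaled to all repeat reads, was 0.211, and 0.110 without replicate 1. With library sizes from the gene counts it was 0.270 over the 3 libraries. Tigger12, a DNA transposon, had 28.3, 152 and 109 CPM and the major satellite GSAT_MM 16.1, 31.5 and 77.3 CPM, from 179, 266 and 410 counts. RLTR9F (252, 54.2 and 61.4 CPM) and ERVB5_2-LTR_MM (277, 74.2 and 69.7 CPM) were highest in replicate 1. MuLV-int, the internal part of murine leukaemia virus elements, had 1919, 6548 and 7110 CPM, lowest in replicate 1, and so was its LTR relative RLTR4_MM-int with 5536, 11014 and 15318 CPM.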

How the data were processed

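Poly(A) RNA of cultured keratinocytes from 3 control mice was analysed. Per the methods, adapters were trimmed with cutadapt, ribosomal sequence was filtered out with bowtie2 and the rest was aligned with STAR. HTSeq is named in the submitters' processing notes, and the gene table deposited by the authors holds whole-number counts, not normalized, of uniquely aligned reads by its headers. The repeat table deposited by the authors also holds counts, from bowtie alignments to MGSCv37 passed to RepEnrich. The labels name GRCm38, whereas the paper's methods name a human build for the gene alignment. Strand use in counting is not given in the sources used here, so overlapping and antisense genes cannot be separated. Between 8.73% and 9.99% of the reads in the gene table fell in entries that name no gene and were left out. The deposited tables of the authors' comparison, with 12 columns of normalized counts, were not used.

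Symbols and exon lengths came from GENCODE M21 on GRCm38 (42548 of 43629 genes), and promoters from RefSeq (GRCm38.p6). CPM used TMM factors after filterByExpr (minimum counts 10 and 15), which kept 14955 genes and 897 repeat names. CPM of repeats are scaled to all repeat reads. The biological coefficient of variation is the square root of the common dispersion of edgeR 4.0.16 (R 4.3.3), tested on simulated data, and DESeq2 1.42.0 was an alternative. Tables and figures were made with Python 3.11.15, pandas 2.3.3, scipy 1.17.1 and matplotlib 3.10.9. Repeat classes were assigned by rules on the names.

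The 30 gene lists (311 genes, of which 310 were found; Trdc was not matched) were written by hand. The members and lists were chosen with earlier results of these data known. Named genes are those of the lists, the 30 with the highest mean RPKM, the 10 with the widest range among genes with a mean of at least 10 CPM, and for each library the 5 farthest above and the 5 farthest below both others on log2 CPM with a prior count of 0.5. Named repeats are the 10 most abundant and the 5 widest-ranging with a mean of at least 100 counts, and RLTR4_MM-int was named after its values were seen. The alternatives were other count minimums, scaling, filters and lengths, and leaving out each replicate. Many list genes are given through the counts and sums of their lists, without values of their own, and some named genes are not reported here.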

Additional observations from a re-analysis of the deposited data

How the results depend on the processing

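The order of the basal, activated, spinous and granular lists by share was the same without factors, in CPM without length, with other exon lengths and without each replicate. None of these alternatives left out Krt5 and Krt14, on which the place of the basal list rests. Without mitochondrial genes the 50 most abundant genes held 13.1% of reads. The count of genes with a 2-fold range was 526 at a mean of at least 10 CPM and 5650 with no filter beyond a count in each library, and between 313 (without replicate 1) and 1058 (without replicate 2) with 1 left out, with 636 without replicate 3. The biological coefficient of variation lay between 0.159 and 0.296 for genes and between 0.110 and 0.244 for repeat names with 1 replicate left out, lowest in both cases without replicate 1. With lengths over the exons of transcripts tagged basic, an alternative chosen after seeing the data, the spinous list summed to 1837 RPKM and took 6.67% of the 4 lists, by construction from shorter lengths. In CPM without length the activated list took 37.7% of them. Without the most abundant name of each class, LINEs held 27.6%, SINEs 32.0%, DNA transposons 2.78% and ribosomal RNA 7.20% of repeat reads, and SINEs then exceeded LTR elements (30.1%). The mean RPKM of 86 named genes moved by at most 1.23% with DESeq2 size factors and 1.13% without factors. With a replicate left out, 24 of the 86 moved by over 1.5 times (6 without replicate 1, 1 without replicate 2 and 18 without replicate 3), among them Vcp-rs (9.98 RPKM, 1.54 without replicate 2), Mir7688 (189 and 37.0) and Rpl31-ps8 (33.4 and 9.81) without replicate 1, and Tslp (66.9 and 26.0) without replicate 3. No paired analysis was possible because 1 group was described and nothing was tested. Depth sets the floor of 3 counts, which was highest in replicate 3.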

Other observations

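The keratin family beyond the lists held a few further members, chosen after their values were seen. Krt80, a type II keratin of differentiated epithelia, had 149, 220 and 254 CPM in control replicates 1, 2 and 3, and Krt42, a relative of Krt17, 71.8, 64.6 and 40.1 CPM, highest in replicate 1. Krt4, a mucosal keratin, had 6.23, 15.7 and 9.89 CPM and Krt78 10.1, 16.4 and 19.3 CPM, both lowest in replicate 1. The S100 genes took 0.657%, 0.401% and 0.389% of gene reads, highest in replicate 1, and the Sprr genes 0.0959%, 0.138% and 0.229%, highest in replicate 3. Annexins took 0.951%, 0.914% and 0.914%.

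Among repeats chosen after their values were seen, BC1_Mm, a small RNA known from neurons, had 10963, 3440 and 3233 CPM of repeat reads, and L1Md_T, a young LINE family, 6295, 3200 and 2618 CPM, both highest in replicate 1. IAPLTR3-int, of the intracisternal A particles, had 735, 956 and 1488 CPM, highest in replicate 3.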
